A study of Sus scrofa with 6 samples.

Results

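Protein phosphatase 2A (PP2A) is a serine/threonine phosphatase built from a catalytic subunit, a scaffold subunit and an exchangeable regulatory subunit, and PTPA, the phosphatase 2A phosphatase activator, is needed to bring the catalytic subunit into its active, metal-loaded form. The genes described here are PTPA and 9 subunit genes chosen by name, PTPA having been picked because its read counts differed between the groups in an earlier analysis of the same libraries. Of these 10 listed names, 9 had a row among the 19271 named genes and were analysed: PTPA, the catalytic genes PPP2CA and PPP2CB, the scaffold genes PPP2R1A and PPP2R1B, the B55 gene PPP2R2A and the B56 genes PPP2R5A, PPP2R5D and PPP2R5E. PPP2R5C was not analysed here. All 9 passed the filter on low counts. The values that chose PTPA, and all others from the same contrast, are given for these genes as a description.

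RNA was sequenced from pig oocytes of large antral follicles (3 to 6 mm across; 3 libraries) and of small antral follicles (1.5 to 1.9 mm across; 3 libraries). All came from prepubertal gilts whose ovaries were obtained at an abattoir, and the oocytes had been stripped of cumulus cells. The series asks how transcripts differ between oocytes of different developmental competence, with follicle size as its only labelled contrast. The labels do not say whether the replicates were separate collections or how many animals each held, so the spread between libraries may be technical.

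Total counts ranged from 8015357 to 56887282 per library, and the 9 genes together had 14611 to 111836 reads per library. Large-follicle library 3 was the shallowest and stood apart on the first principal component (score 54.6, against -15.0 to -6.03 in the other 5). Oocyte markers were abundant in every library, with a summed level of 12540 to 14900 CPM (read counts scaled to a common library size) in the large-follicle group and 17030 to 18250 CPM in the small-follicle group over 10 of 10 listed genes. Among them GDF9 averaged 2194 ± 293 and 2583 ± 54.9 CPM, BMP15 2881 ± 236 and 3851 ± 133 CPM, and ZP3 2093 ± 363 and 3102 ± 184 CPM in oocytes of large and of small follicles (SD, n = 3 each). Without overlap between groups, 8 of the 10 were lower in large-follicle oocytes and 1, BTG4, was higher (1068 ± 71.7 and 889 ± 65.0 CPM), while OOEP overlapped (132 ± 15.3 and 137 ± 11.8 CPM). Of all 14091 genes tested, 11.6% were lower and 12.1% higher without overlap.

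The regulatory subunit directs PP2A to its substrates. In frog eggs and mouse oocytes, PP2A with B55 removes phosphates that the kinase CDK1 places, and the Greatwall kinase MASTL restrains it through ENSA and ARPP19 on entry into division. In mouse oocytes and in yeast, PP2A with B56 is held at centromeres by shugoshin, where it keeps cohesin from being cleaved in the first meiotic division.

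PTPA was lower in oocytes of large follicles, and the 8 subunit genes differed by far less and in both directions. PTPA stood at 17.3, 17.8 and 19.8 CPM in large-follicle libraries 1 to 3, against 29.1, 30.4 and 29.1 CPM in small-follicle libraries 1 to 3. The highest large-follicle library lay well below the lowest small-follicle library. In bulk libraries such as these, fewer cells with a transcript and less of it per cell cannot be told apart. The means were 18.3 ± 1.33 and 29.5 ± 0.750 CPM in oocytes of large and of small follicles (SD, n = 3 each), a log2 difference of -0.70 (SE 0.091), or 0.614 times the small-follicle level. These values rest on 356, 981 and 160 PTPA reads in the large-follicle libraries and 1643, 1026 and 1168 in the small-follicle libraries. In edgeR's quasi-likelihood test, PTPA was among the genes called lower in large-follicle oocytes at a Benjamini-Hochberg adjusted p under 0.05. Its unadjusted p in that test was 2.1e-05. Its adjusted p of 0.0499, just inside the threshold, was shared with other called genes, BICDL1 and ZFYVE27 among them. The members nearest outside the threshold were PPP2R1A and PPP2R2A, both at an adjusted p of 0.142 in that test. Genes called lower made up 0.0497% of the 14091 tested, and those called higher 0.0142%. The call of PTPA is what selected this gene, so the call is no separate evidence. It was lost without large-follicle library 2 (adjusted p = 0.142 by edgeR), and also when small-follicle library 1, 2 or 3 was left out (adjusted p = 0.319, 0.362 and 0.158), with log2 differences of -0.71 to -0.69 in those fits. It was also lost with DESeq2's size factors in edgeR (adjusted p = 0.0535) and with limma on the deposited TPM (0.122), and over all alternatives the adjusted p ranged from 1.45e-07, by DESeq2's own test, to 0.362.

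**Figure D1:**
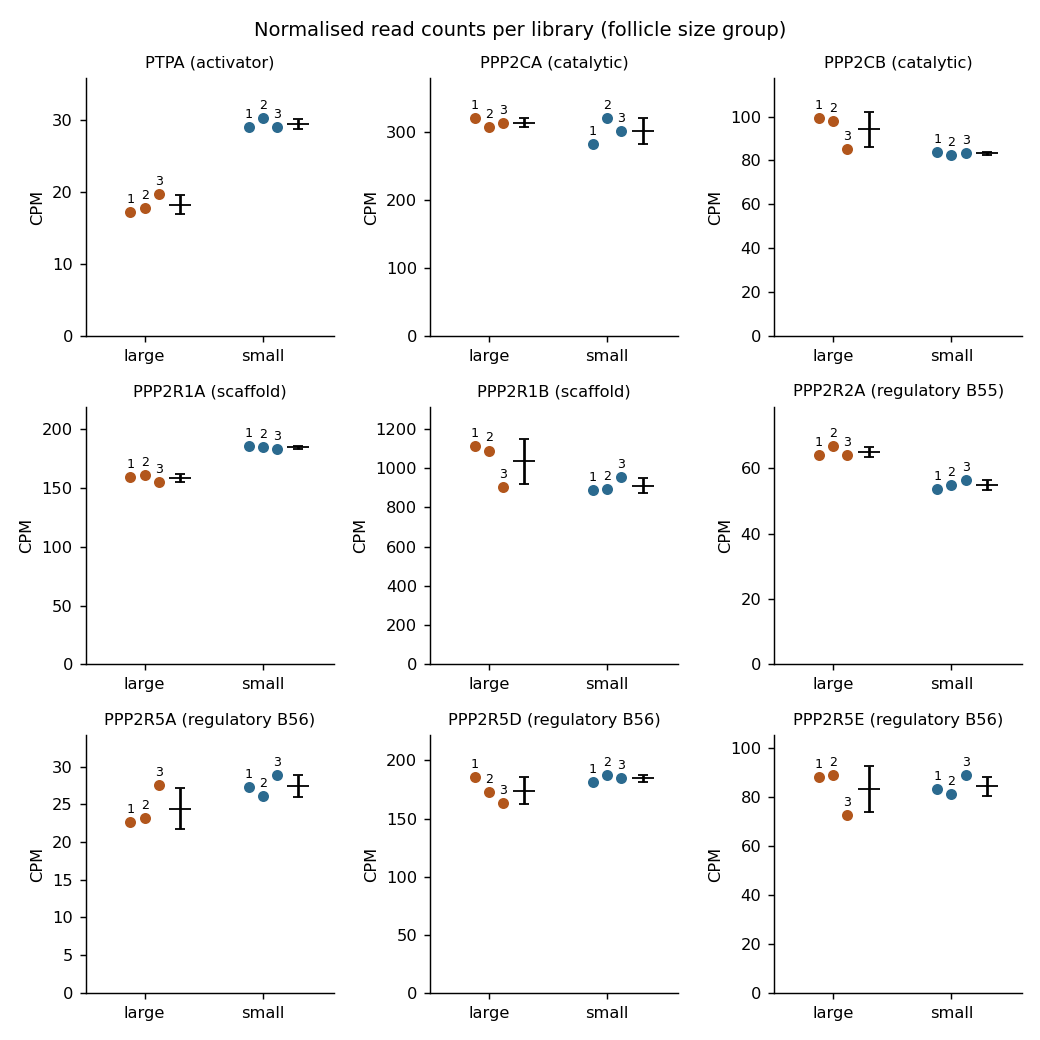
Normalised read counts (CPM, vertical axis from 0) of PTPA and 8 PP2A subunit genes, with 1 point per library numbered by replicate, large follicles left and small follicles right, and bars for mean ± SD (n = 3 each). PTPA lies at 17.3 to 19.8 CPM in large-follicle libraries, apart from 29.1 to 30.4 CPM in small-follicle libraries, while most subunit panels show groups that touch or overlap.

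The catalytic genes PPP2CA and PPP2CB encode closely related enzymes that share the active site and are often treated as interchangeable. PPP2CA had 321, 307 and 314 CPM in large-follicle libraries 1 to 3, against 283, 320.5 and 301 CPM in small-follicle libraries 1 to 3. The groups overlapped, with a log2 difference of 0.059 (SE 0.072). PPP2CB had 99.5, 98.0 and 85.1 CPM in the large-follicle libraries, against 84.0, 82.6 and 83.3 CPM in the small-follicle libraries, a log2 difference of 0.18 (SE 0.081). Its groups did not overlap, but large-follicle library 3 lay close to the small-follicle libraries. Reads from near-identical stretches of these related genes, or of processed copies, could have been shared between them in the authors' counting.

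The scaffold genes lay on opposite sides of no difference. PPP2R1A, which encodes the alpha scaffold onto which the catalytic and regulatory subunits fold, had 159, 161 and 155 CPM in the large-follicle libraries, against 185, 184 and 183 CPM in the small-follicle libraries. The groups did not overlap, and the log2 difference was -0.22 (SE 0.065). PPP2R1B, which encodes the beta scaffold, had 1111, 1089 and 904 CPM in the large-follicle libraries, against 886, 892 and 953 CPM in the small-follicle libraries. Here large-follicle library 3 fell inside the small-follicle range, and the log2 difference was 0.18 (SE 0.090). In RefSeq's annotation of Sscrofa11.1 the PPP2R1B interval overlaps that of SIK2, so part of its reads could belong to that neighbour.

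Among the regulatory genes, the B55 gene PPP2R2A had 64.1, 66.8 and 64.1 CPM in the large-follicle libraries, against 53.6, 54.9 and 56.5 CPM in the small-follicle libraries. All large-follicle libraries lay above all small-follicle libraries, with a log2 difference of 0.24 (SE 0.072). The B56 alpha gene PPP2R5A had 22.7, 23.1 and 27.5 CPM in the large-follicle libraries, against 27.4, 26.1 and 28.9 CPM in the small-follicle libraries, again with large-follicle library 3 among the small-follicle values (log2 difference -0.18, SE 0.10). The B56 delta gene PPP2R5D had 186, 173 and 163 CPM in the large-follicle libraries, against 182, 188 and 185 CPM in the small-follicle libraries (-0.084, SE 0.073). For the B56 epsilon gene PPP2R5E the values were 88.0, 89.0 and 72.5 CPM in the large-follicle libraries, against 83.1, 81.2 and 88.7 CPM in the small-follicle libraries (-0.013, SE 0.093). Both of these overlapped between groups. The PPP2R5D interval overlaps that of MEA1 in the annotation, and those of PPP2R2A and PPP2R5A overlap uncharacterised loci.

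Over the 8 subunit genes the log2 differences lay between -0.22 and 0.24 with a median of 0.023, beside a median of 0.0039 over all genes tested. edgeR called 0 of the 8 at an adjusted p under 0.05, and 3 had an unadjusted p under 0.05 (18.0% of all genes tested did). DESeq2's own test called 1, PPP2R1A, where it called 7.03% of the 10266 genes it gave an adjusted p. Subunits whose libraries did not overlap between groups numbered 1 on the lower side (PPP2R1A) and 2 on the higher side (PPP2CB and PPP2R2A), where 11.6% and 12.1% of all genes tested did so. Since the genes were listed with this contrast known, these shares are read only as a description.

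How many subunits were called beside PTPA depended on large-follicle library 3. Without it, with 2 large-follicle libraries against 3, edgeR called 13.2% of all genes, and the called members numbered 5: PTPA with a log2 difference of -0.76 (SE 0.086), PPP2R1A with -0.21 (SE 0.062), PPP2R1B with 0.26 (SE 0.070), PPP2CB with 0.24 (SE 0.064) and PPP2R2A with 0.24 (SE 0.070). PPP2R5A stood at -0.27 (SE 0.090) in that fit and was not called. The subunit differences called there had sizes of 0.21 to 0.26, in both directions, against 0.76 for PTPA. Library 3 held 82.7 CPM of granulosa and cumulus markers, against 27.7 and 42.1 CPM in large-follicle libraries 1 and 2 and 89.9, 66.4 and 16.7 CPM in small-follicle libraries 1 to 3. INHBA, an activin and inhibin subunit gene, made up 65.0 CPM of the sum in library 3, and the part of these markers in its subunit levels was not tested.

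**Figure D2:**
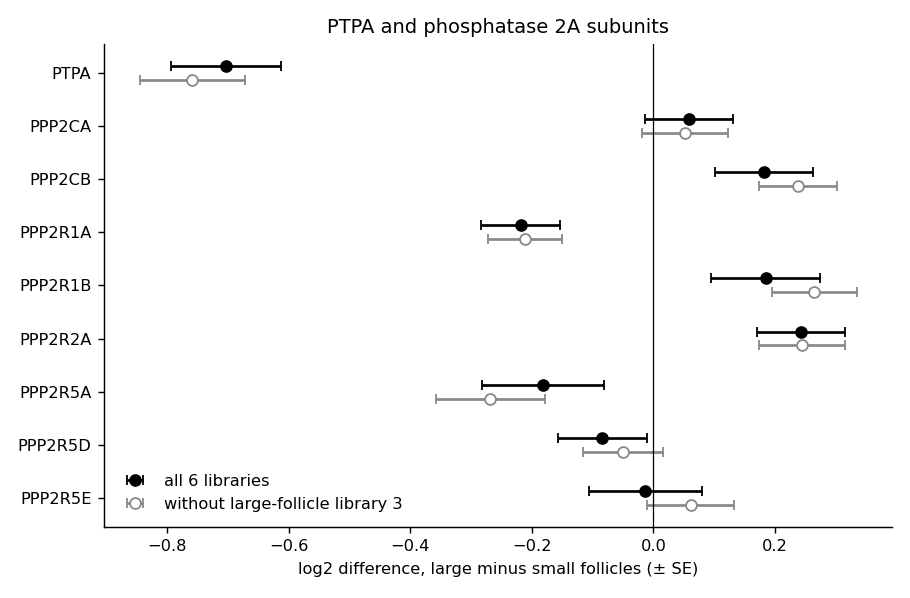
Log2 differences, large minus small follicles, with SE bars (horizontal axis), for PTPA and 8 subunit genes (rows); filled points use all 6 libraries and open points leave out large-follicle library 3. PTPA sits at -0.70 and -0.76, and every subunit lies between -0.27 and 0.26 in either fit.

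Ratios within a library do not depend on how libraries are scaled to each other. There were 0.841, 0.885 and 1.11 PTPA reads per 100 reads of the 8 subunits in large-follicle libraries 1 to 3, against 1.63, 1.66 and 1.55 in small-follicle libraries 1 to 3. The groups were well separated, by -0.78 on the log2 scale with a pooled SD over libraries of 0.15. Of the subunits, PPP2R1B had the most reads, with 22926, 60146 and 7318 in large-follicle libraries 1 to 3. The 8 subunits and PTPA together had 42686, 111836 and 14611 there. In small-follicle libraries 1 to 3 PPP2R1B had 50111, 30131 and 38286 of 102533, 62827 and 76623 reads. PPP2R1B itself differed by 0.18, and PTPA alone by -0.70, on the log2 scale. With deposited TPM in place of reads, the ratio differed by -0.73. Leaving out any 1 library gave log2 differences of -0.90 to -0.70 for the ratio in reads. Their sign was fixed in advance, since the groups did not overlap. Set against PPP2R1A alone, the subunit whose large-follicle libraries were all below the small-follicle ones, PTPA had 10.9, 11.0 and 12.8 reads per 100 in the large-follicle libraries, against 15.7, 16.5 and 15.9 in the small-follicle libraries. The groups did not overlap on that base either, with a log2 difference of -0.48. PTPA, picked for its difference between the groups, enters each of these ratios, so they are no separate evidence.

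The balance of the scaffold pair also separated the groups, as PPP2R1A did by itself. PPP2R1A made up 42.0, 42.9 and 46.5% of the scaffold TPM, a unit that corrects for gene length, in the large-follicle libraries, against 51.5, 51.2 and 49.3% in the small-follicle libraries. The summed scaffold level overlapped, at 474 ± 40.5 TPM in large-follicle and 478 ± 12.8 TPM in small-follicle oocytes (SD, n = 3 each). PPP2CB made up 49.4 ± 2.16% of the catalytic TPM in large-follicle and 47.5 ± 1.76% in small-follicle oocytes, and these shares overlapped. The summed catalytic level was 394 ± 22.5 and 366 ± 6.68 TPM, and the summed regulatory level 225 ± 12.3 and 230 ± 5.71 TPM, in large-follicle and small-follicle oocytes. Both sums overlapped between the groups. Set against PPP2R5D alone of the B56 genes, PPP2R2A had 34.5, 38.7 and 39.3 reads per 100 in the large-follicle libraries. The small-follicle libraries had 29.5, 29.2 and 30.6. The groups did not overlap for this ratio, as they did not for PPP2R2A by itself. Within B56, the PPP2R5D share was 64.4 ± 1.13% of the TPM of the 3 genes in large-follicle and 64.7 ± 1.29% in small-follicle oocytes.

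**Figure D3:**
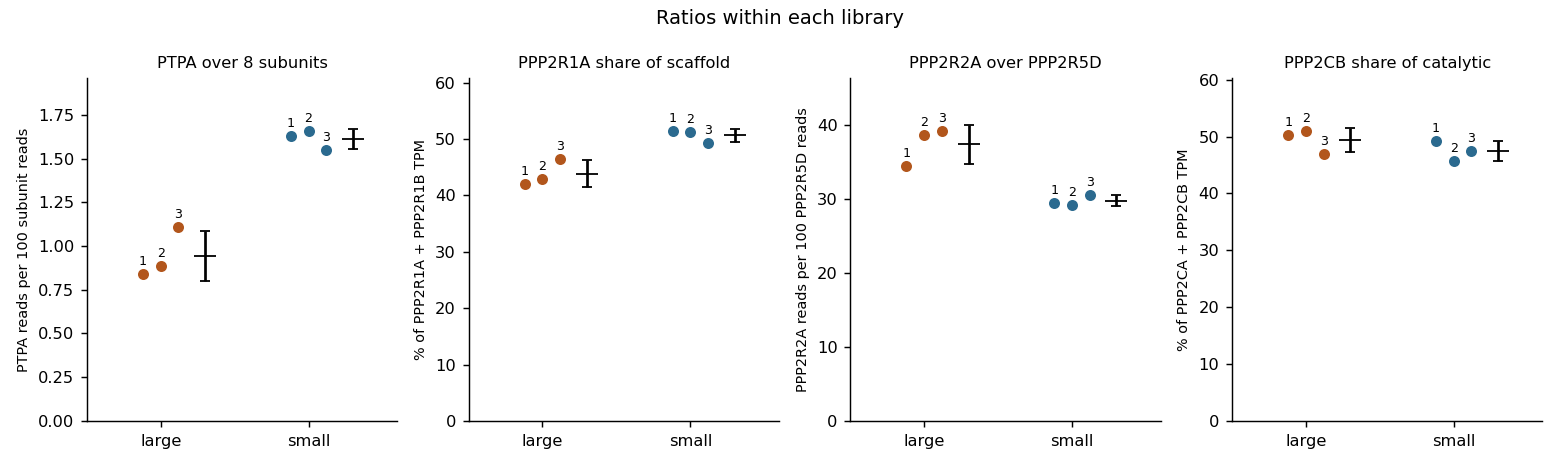
Ratios computed within each library, with 1 numbered point per library, large follicles left and small follicles right, vertical axes from 0, and bars for mean ± SD (n = 3 each). PTPA reads per 100 subunit reads (0.841 to 1.11 against 1.55 to 1.66), the PPP2R1A share of scaffold TPM and PPP2R2A reads per 100 PPP2R5D reads separate the groups, and the PPP2CB share of catalytic TPM does not.

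By level per gene length, PTPA was the rarest of the 9 transcripts and the subunits of the core enzyme the most abundant. The deposited TPM over the 6 libraries ranged from 228 to 287 for PPP2R1B, 199 to 245 for PPP2R1A, 182 to 203 for PPP2CA and 169 to 208 for PPP2CB. In that order each of these overlapped its neighbour. PPP2R5D followed at 108 to 126 TPM, apart from those above and below it. PPP2R5E (35.2 to 45.1 TPM) and PPP2R2A (36.1 to 45.5 TPM) could not be ordered, and PPP2R5A (21.4 to 27.9 TPM) lay under them. PTPA had 9.02, 9.55 and 10.2 TPM in large-follicle libraries 1 to 3, against 15.5, 15.8 and 15.5 TPM in small-follicle libraries 1 to 3. Its mean TPM exceeded that of 43.2% of the genes tested, against 94.9% for PPP2R1B, 92.9% for PPP2CA and 86.7% for PPP2R5D. These levels depend on the gene models behind the deposited values, in which the length of PPP2CB was 0.254 times and that of PPP2R1B 2.04 times that of PTPA. Set against the catalytic subunits on which the activator acts, there were 2.44 ± 0.290 TPM of PTPA per 100 TPM of catalytic subunits in large-follicle oocytes and 4.27 ± 0.0568 in small-follicle oocytes (SD, n = 3 each).

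**Figure D4:**
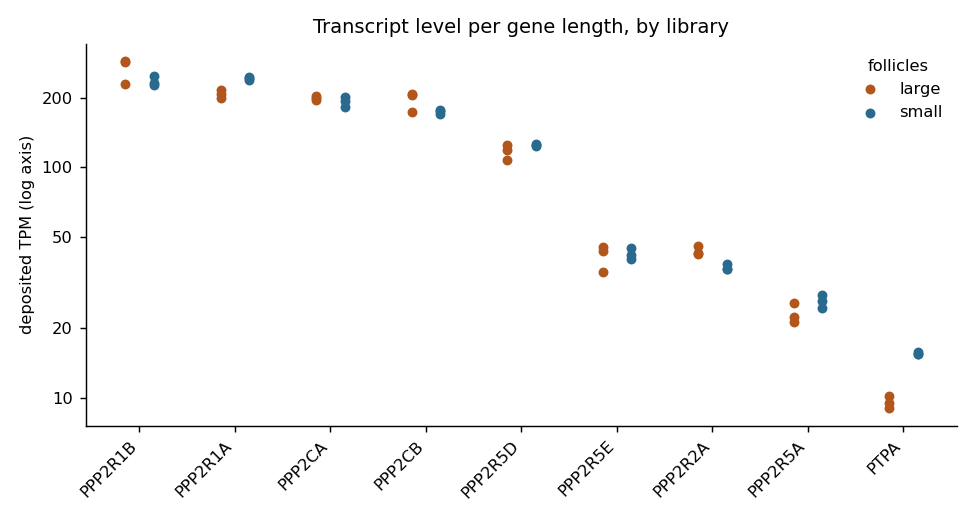
Deposited TPM per library on a log axis for 9 genes ordered by their mean, with large-follicle points left of small-follicle points for each gene. PTPA is lowest, at 9.02 to 10.2 TPM in large-follicle and 15.5 to 15.8 TPM in small-follicle libraries, and PPP2R1B, PPP2R1A, PPP2CA and PPP2CB lie between 169 and 287 TPM.

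The lists of related genes held no call over all genes tested. Their counts stand beside 18.0% of all genes at an unadjusted p under 0.05 in edgeR. DESeq2 called 7.03% of the genes it gave an adjusted p. Of 10 other PP2A regulatory subunit and striatin genes, 7 were tested and edgeR called 0 (1 at an unadjusted p under 0.05, and 1 by DESeq2). Their median log2 difference was -0.012. STRN, which encodes striatin, the regulatory subunit of the STRIPAK complex, had 85.4, 95.4 and 71.5 CPM in the large-follicle libraries, against 64.0, 63.4 and 65.7 CPM in the small-follicle libraries. All its large-follicle values were the higher ones (log2 difference 0.39, SE 0.10, adjusted p = 0.112 by edgeR, and 0.0145 by DESeq2). The B56 beta gene PPP2R5B overlapped between groups (-0.19, SE 0.12, adjusted p = 0.441 by edgeR).

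Of 17 genes that load, methylate, inhibit or place PP2A, 9 were tested and edgeR called 0 (1 at an unadjusted p under 0.05, and 1 by DESeq2), with a median log2 difference of 0.063. BOD1L1, a paralogue of the B56 inhibitor BOD1, had 160, 187 and 150.0 CPM in the large-follicle libraries, against 126, 107 and 123 CPM in the small-follicle libraries. Its libraries did not overlap (0.48, SE 0.10, adjusted p = 0.0904 by edgeR, and 0.00160 by DESeq2). The shugoshin gene SGO2 differed by 0.17 (SE 0.097, adjusted p = 0.372 by edgeR). MASTL and ENSA, named for the roles given above after their values were seen, did not pass: MASTL averaged 333 ± 50.6 and 299 ± 4.47 CPM, and ENSA 93.7 ± 8.55 and 96.0 ± 4.06 CPM, in oocytes of large and of small follicles. PPME1, the PP2A methylesterase, and CIP2A, an inhibitor of PP2A, also named after their values were seen, differed by 0.018 (SE 0.078) and 0.063 (SE 0.092).

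In the list of STRIPAK and Integrator partners of PP2A, 13 of 14 genes were tested and edgeR called 0. In edgeR 6 had an unadjusted p under 0.05 (18.0% of all genes). DESeq2 called 1 (7.03% of the genes it gave an adjusted p), and the median log2 difference was 0.062. The STRIPAK member FGFR1OP2 had 64.7, 64.7 and 67.2 CPM in the large-follicle libraries, against 50.3, 49.9 and 58.7 CPM in the small-follicle libraries. INTS8, the Integrator subunit that binds PP2A, had 5.72, 5.78 and 7.29 CPM in the large-follicle libraries, against 7.87, 8.94 and 8.12 CPM in the small-follicle libraries. Neither overlapped between groups, in opposite directions (0.31, SE 0.087, and -0.44, SE 0.14; adjusted p = 0.132 and 0.159 by edgeR). Of 20 genes of PP4, PP6 and other phosphatases of the same family, 19 were tested and edgeR called 0, with a median of 0.058. Of these, 6 had an unadjusted p under 0.05 in edgeR and DESeq2 called 0, beside the same shares. PPP4R4, a PP4 regulatory subunit, differed by 0.21 (SE 0.075), and PPP1CB, a catalytic subunit of PP1, by 0.21 (SE 0.078), with adjusted p of 0.194 and 0.201 by edgeR. Without large-follicle library 3 the calls were 1, 2, 3 and 6 in these lists, in the order given, again among 13.2% of all genes.

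**Figure D5:**
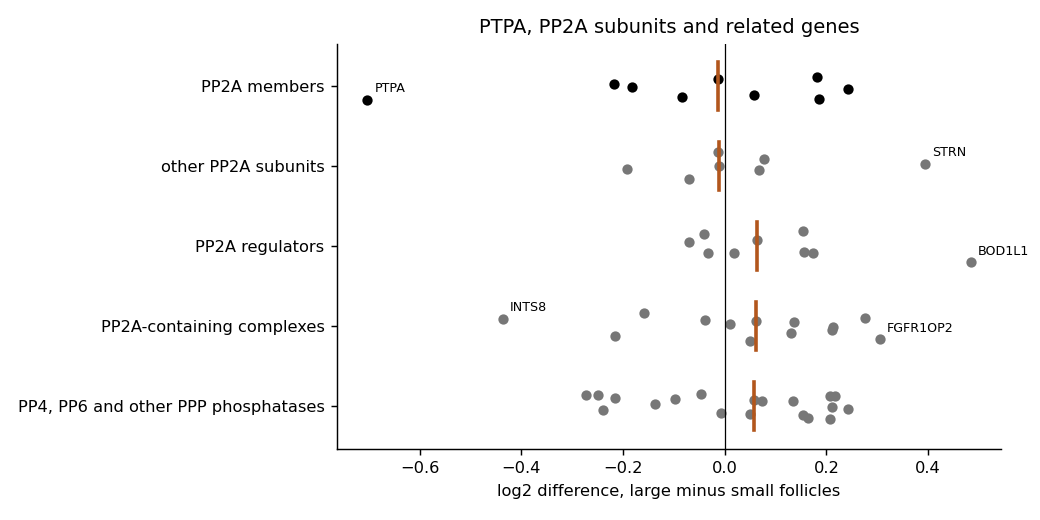
Log2 differences, large minus small follicles (horizontal axis), of 9 PP2A members and of 4 lists of related genes, with 1 point per gene tested, a vertical bar at each list's median and the points spread vertically for legibility. PTPA, picked because it differed between the groups, lies lowest at -0.70, a place that follows from that choice. The next lowest is INTS8 at -0.44, and the list medians lie between -0.013 and 0.063.

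The genes whose log2 CPM followed PTPA most closely over the 6 libraries, out of 9160 with at least 5 CPM and a symbol, were E4F1, which encodes a zinc finger ubiquitin ligase (Pearson r = 0.997), the microtubule-binding protein gene GTSE1 (0.996), the dynein adaptor gene BICDL1 (0.994), the endoplasmic reticulum protein gene ZFYVE27 (0.993) and KLHL22, an adaptor of a cullin ubiquitin ligase (0.992). The 6 points fall into the same groups for each gene, and 111 genes had r over 0.95. On the same measure the 8 subunits ran from -0.964 (PPP2R2A) to 0.951 (PPP2R1A), with PPP2CB at -0.867, PPP2R1B at -0.777, PPP2R5A at 0.740, PPP2R5D at 0.495, PPP2CA at -0.441 and PPP2R5E at -0.044. These values are a description over 6 libraries, and they give no size of difference. E4F1 had 5.33, 5.45 and 5.80 CPM in the large-follicle libraries, against 8.17, 8.14 and 8.09 CPM in the small-follicle libraries. BICDL1 had 17.9, 17.6 and 18.8 CPM in the large-follicle libraries, against 28.4, 30.0 and 27.9 CPM in the small-follicle libraries. In both genes the large-follicle libraries were the lower ones, with library 3 the highest of them. This order follows from choosing the genes by likeness to PTPA. BICDL1 and ZFYVE27 were themselves called lower by edgeR, at the same adjusted p as PTPA (0.0499), while E4F1, GTSE1 and KLHL22 were not called.

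PTPA lies on chromosome 1 from 269401776 to 269431465 in RefSeq's annotation of Sscrofa11.1, the build the submitters' processing notes name, and no other annotated gene overlaps it there. Of the 10 nearest tested genes, 5 on each side, edgeR called 0, and their log2 differences ran from -1.12 (PTGES, under 1 CPM in both groups) to 0.13 (NTMT1). Those with libraries lower in the large-follicle group without overlap numbered 3 (MIGA2, DOLPP1 and CRAT), where 11.6% of all genes tested did so. These neighbours were named after their values were seen. CRAT, the nearest tested gene at lower coordinates, which encodes carnitine acetyltransferase, averaged 16.0 ± 1.64 and 19.8 ± 0.612 CPM in oocytes of large and of small follicles (log2 difference -0.32, SE 0.11, adjusted p = 0.168 by edgeR). IER5L, the nearest on the other side, overlapped between groups (0.032, SE 0.079). PPP2R5E lies on the same chromosome from 194505535 to 194653302, and the other 7 genes are on chromosomes 2, 6, 7, 9, 14 and 15.

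Markers of the other cells a follicle sample could hold were measured beside PTPA. Granulosa and cumulus markers, 12 of 16 listed genes, summed to 27.7 to 82.7 CPM in the large-follicle and 16.7 to 89.9 CPM in the small-follicle libraries (exact two-sided permutation test, p = 0.9; the smallest p that 3 against 3 allows is 0.1). These sums overlapped between the groups. INHBA was the largest part of each sum. It had 17.4, 28.0 and 65.0 CPM in large-follicle libraries 1 to 3, and 54.7, 41.0 and 9.04 CPM in small-follicle libraries 1 to 3. Of the 8 markers tested, 6 had the lower mean in large-follicle oocytes and 2 the higher, with a median log2 difference of -0.43. edgeR called 0 of them. The part of these markers in the PTPA difference was not tested. In this list AMH, AMHR2 and PTX3 had 0 reads in some library. INHA averaged 6.25 ± 2.59 and 13.5 ± 9.96 CPM and FSHR 0.622 ± 0.238 and 0.668 ± 0.776 CPM in oocytes of large and of small follicles (SD, n = 3 each). Markers of theca, stroma, blood and immune cells, 11 of 11 listed genes, summed to 17.8 to 19.5 CPM in the large-follicle and 20.5 to 21.9 CPM in the small-follicle libraries (exact two-sided permutation test, p = 0.1). Here CYP17A1, LUM, ACTA2 and HBB had 0 reads in some library, and COL1A2 averaged 9.89 ± 1.06 and 11.9 ± 0.806 CPM in oocytes of large and of small follicles. On the CPM scale this sum and that of the oocyte markers were lower in the large-follicle group without overlap, as PTPA was. In TPM the theca, stroma, blood and immune sum overlapped, at 12.36 to 13.36 in the large-follicle and 13.29 to 14.91 in the small-follicle libraries. The oocyte sum was lower without overlap in TPM too. The part of these markers in the PTPA difference was not tested.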

How the data were processed

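The authors deposited a table of raw read counts by gene and library, not normalised, with TPM values beside them (scaled by gene length and depth) with the same total in every library, per the file headers and values. The genome build named in the submitters' processing notes is Sscrofa11.1. How reads were aligned and counted, and whether by strand, is not given in the sources used here. Reads of overlapping genes and near-identical copies cannot be told apart. Groups follow the sample titles.

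Rows named by a date (25 of 19296, on average 0.153% of reads) were left out, and 853 of 4604 Ensembl identifiers were given the symbol of a name table. The counts were tested with edgeR 4.0.16 in R 4.3.3: TMM factors, filterByExpr, robust quasi-likelihood F test on group alone, 14091 genes tested, Benjamini-Hochberg adjusted p under 0.05. Log2 differences are large minus small follicles, SE is the absolute log2 difference over the square root of F, and CPM use TMM-scaled library sizes. DESeq2 1.42.0, and limma 3.58.1 on log2(TPM + 1), were alternatives, with other scalings, filters, a replicate block and each library left out. Scripts were tested on simulated data.

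The members and lists were chosen with earlier results of these data known. Named genes are all members with a row, up to 4 passing genes per related list (if none passed, the 2 with the lowest p), the 5 most correlated with PTPA (log2 CPM, prior count 2), and GDF9, BMP15, ZP3, FSHR, INHA and COL1A2. Libraries within a group differed beyond sampling noise (10.4 to 22.2 as chi-square over its degrees of freedom), and each counted as a sample. Sequences are not used here.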

Additional observations from a re-analysis of the deposited data

How the results depend on the processing

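Under the 13 alternatives the log2 difference of PTPA lay between -0.76 and -0.65. Its call was kept under 7, and lost with DESeq2's size factors in edgeR (-0.71, adjusted p = 0.0535), with limma on log2(TPM + 1) (-0.65, adjusted p = 0.122) and without each of 4 libraries. Leaving out each library gave -0.76 to -0.67, with adjusted p of 0.00358 to 0.362 by edgeR. edgeR's count of genes passing, 9, became 0 with DESeq2's size factors, 14 with library size alone, 52 with no filter, 20 at 5 CPM or more in 3 libraries, 722 by DESeq2's own test, 0 with limma on TPM and 0 to 1899 without each library. Members called, 1, became 0, 2 and 0 with DESeq2's size factors, DESeq2's own test and limma, and 0 to 5 without each library. In the lists of other subunits, regulators and PP2A-containing complexes DESeq2 called 1 each. Without each library these lists and that of other phosphatases gave 0 to 1, 0 to 2, 0 to 3 and 0 to 6. The sign of PPP2R5E, never called, was positive without large-follicle library 3 (0.061) and small-follicle library 3 (0.023), within -0.065 to 0.061 over all such fits. The cause of these changes was not tested. The replicate numbers did not pair the libraries (correlations of deviations -0.095, 0.0028 and -0.16), and with a replicate block 24 genes passed and PTPA differed by -0.70 (adjusted p = 0.0444). Deposited TPM as base, or the scaffolds alone, gave ratios of PTPA to subunits of -0.73 and -0.81 (log2). Counting error limits large-follicle library 3 most, with 160 PTPA reads.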
